A study of Mus musculus with 4 samples.

Results

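The genes described here encode enzymes of glycolysis. They were chosen by symbol, 10 in all: Hk1, Hk2, Gpi1, Pfkl, Pfkp, Aldoa, Pgk1, Eno1, Pkm and Ldha. Of these, 8 had a probe set that carried their symbol alone, out of 19938 genes measured that way, and a gene with several such probe sets was read from the brightest, by its mean on the 4 arrays. Gpi1 and Eno1 had none and were not analysed here. The values are expression levels on Affymetrix mouse gene arrays, on a log2 scale. They come from marrow stromal cells of C57BL/6 mice carrying Nes-gfp, in which green fluorescent protein is driven by the nestin promoter. All 4 samples were sorted for the reporter and against CD45, CD31 and Ter119, surface proteins of blood, endothelial and erythroid cells, 10 weeks after a marrow transplant. In the MPN group (myeloproliferative neoplasm, 3 mice) the transplanted cells carried JAK2-V617F, a constitutively active form of the kinase, and Mx1-cre, a Cre recombinase that interferon switches on. The 1 control mouse received control cells, whose genotype beyond that word is not given, and its own label names only Nes-gfp. The labels give the genotype of the MPN samples as Nes-gfp, Mx1-cre and JAK2-V617F together, while the design text places the mutant allele in the transplanted cells. Ages are not given. With 1 control array, the smallest p that an exact permutation of the 4 arrays allows is 0.25, so the tests below rest on limma, which assumes that the control mouse varies like the MPN mice.

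Glycolysis splits glucose into pyruvate in the cytosol. Hexokinases trap glucose as its phosphate, phosphofructokinase commits it to the pathway, and aldolase cleaves the sugar. The later enzymes, phosphoglycerate kinase and pyruvate kinase among them, return the energy as ATP, and lactate dehydrogenase turns pyruvate into lactate. Blood cells and marrow stromal cells both use the pathway, and many of its genes are known targets of hypoxia-inducible factors, which bind DNA at the core letters ACGTG or GCGTG.

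The arrays were checked against cell type markers, because the sort should leave stromal cells. Of 12 pan-leukocyte markers, 11 lay above the control on each MPN array, and the mean level of the list was 8.97, 8.67 and 9.38 with MPN marrow against 6.51 on the control array. For the 15 neutrophil markers the mean level was 10.64, 9.67 and 10.86 against 7.34. The 14 mesenchymal stromal markers went the other way, at 6.23, 5.58 and 6.28 against 9.57, and 13 of them were lower than the control on each MPN array. The 11 cell cycle genes had a mean level of 7.51, 8.62 and 8.47 against 6.70, and 10 of them lay above the control on each MPN array. Above the control on each MPN array were also 7 of 8 endothelial, 6 of 10 macrophage, 3 of 7 B cell precursor and 2 of 5 erythroid markers. Of all genes, 46.8% lay above the control on each MPN array and 21.1% below it. Under the background limit in both groups were 5 of the macrophage markers, Adgre1 and Csf1r among them, and 4 of the endothelial markers, Kdr and Tek among them. Nes, the gene of the reporter's promoter, did not reach the background limit of 5.21 in either group. That limit is the 95th percentile of the mean level of odorant and vomeronasal receptor genes, taken as silent in marrow. Ptprc encodes CD45 and was at 10.16, 9.46 and 10.40 with MPN marrow against 7.07 in the control. The part of these marker differences in any glycolytic value was not tested. In a sorted bulk sample, a change in the number of cells of a type and a change in RNA per cell cannot be told apart. On the log2 scale the median gene was 0.179 higher on the MPN arrays and the median receptor gene 0.255 higher. Among genes above the background limit the median was 0.0785 higher. The mean level over all genes differed little, at 5.43, 5.42 and 5.41 on the MPN arrays against 5.42. Differences of 0.179 to 0.255 are no larger than these medians of all genes and of genes taken as silent.

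**Figure D1:**
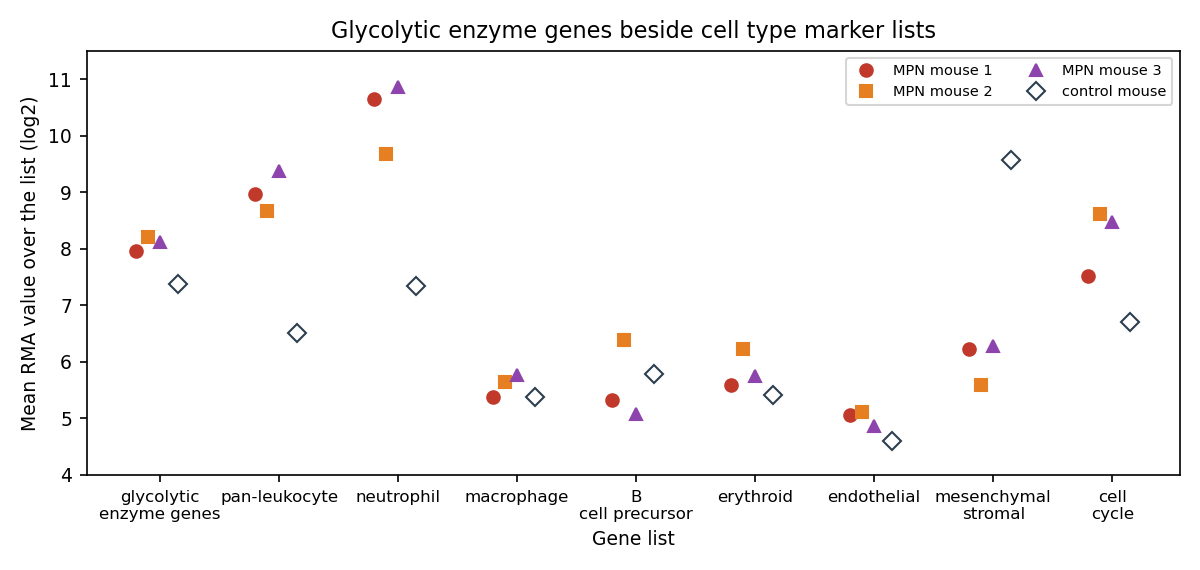
Mean RMA value (log2) over the genes of each list, on each of the 3 MPN arrays and the control array. The glycolytic enzyme genes lay between 7.95 and 8.20 on the MPN arrays and at 7.37 on the control array, beside a neutrophil list at 9.67 to 10.86 against 7.34 and a mesenchymal stromal list at 5.58 to 6.28 against 9.57.

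Promoter sequences are shown for the pair of members with the largest differences, Pgk1 and Pkm, and for Ldha, the member with the smallest. Each window runs from 250 bases before to 50 bases after a transcription start in RefSeq on build GRCm38.p6, written 5′ to 3′ on the gene's strand. Capitals mark every ACGTG, on either strand, so that CACGT is its reverse complement and the palindrome CACGTG counts once on each strand. Pgk1 has 1 start in the table, at chrX:106186850-106187149 on the plus strand. Pkm has 2 starts, chr9:59656326-59656625 and chr9:59656977-59657276, both on the plus strand. For Ldha the first of 2 starts is shown, chr7:46845554-46845853 on the plus strand.
Pgk1: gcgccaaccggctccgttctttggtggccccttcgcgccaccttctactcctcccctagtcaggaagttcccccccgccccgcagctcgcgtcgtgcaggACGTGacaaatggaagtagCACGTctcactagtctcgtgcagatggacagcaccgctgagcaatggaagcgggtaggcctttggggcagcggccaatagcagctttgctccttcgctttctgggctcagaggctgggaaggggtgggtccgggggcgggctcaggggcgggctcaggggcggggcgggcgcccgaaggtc
Pkm, start 1: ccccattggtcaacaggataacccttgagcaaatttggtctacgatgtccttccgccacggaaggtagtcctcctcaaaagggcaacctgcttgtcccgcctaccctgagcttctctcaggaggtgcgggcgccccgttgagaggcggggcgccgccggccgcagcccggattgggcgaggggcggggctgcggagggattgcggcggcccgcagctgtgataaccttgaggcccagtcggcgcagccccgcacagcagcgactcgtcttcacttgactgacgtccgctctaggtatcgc
Pkm, start 2: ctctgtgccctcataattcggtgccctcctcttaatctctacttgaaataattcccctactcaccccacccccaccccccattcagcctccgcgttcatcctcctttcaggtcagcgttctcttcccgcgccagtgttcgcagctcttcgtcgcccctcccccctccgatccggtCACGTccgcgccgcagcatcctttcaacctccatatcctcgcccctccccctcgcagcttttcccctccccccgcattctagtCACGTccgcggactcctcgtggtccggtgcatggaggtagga
Ldha, start 1: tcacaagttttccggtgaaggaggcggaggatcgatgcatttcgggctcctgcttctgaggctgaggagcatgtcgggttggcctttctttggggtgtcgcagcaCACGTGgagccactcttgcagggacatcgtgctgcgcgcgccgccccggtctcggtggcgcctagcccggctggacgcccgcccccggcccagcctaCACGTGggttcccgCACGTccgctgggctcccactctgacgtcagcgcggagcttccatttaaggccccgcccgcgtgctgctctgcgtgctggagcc
The Pgk1 window holds 2 matches, the first Pkm window 0, the second Pkm window 2 and the Ldha window 5. Ldha has a second window in the table, with 0 matches. All 10 listed genes have a window there, 17 windows in all, and 7 of the 17 hold ACGTG, in Hk1, Hk2, Aldoa, Pgk1, Pkm and Ldha. Of all 32851 windows of the same length, 19.6% hold the motif. Counting only the first window of each gene, 3 of 10 hold it, against 19.7% of the first windows of all genes. The related core GCGTG was found in 8 of the 17 windows and 4 of the 10 first windows, against 32.4% of all windows and 32.5% of first windows. Windows of 1 gene can overlap, so they are not independent. A match is a string of letters and not a site shown to be bound.

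The measured members were divided after their values were seen. A group of 3 genes, Pgk1, Pkm and Aldoa, lay at least 0.762 above the control on every MPN array, a line set by the lowest Aldoa value. The other 5 had differences that were smaller or differed between mice. Pgk1 was 3.37-fold and Pkm 3.03-fold higher on the MPN arrays, and Aldoa 1.95-fold. Ldha, the enzyme that follows pyruvate kinase, differed by 1.11-fold and its groups overlapped. None of the 8 passed limma's test at an adjusted p of 0.05 over all genes, and neither did any other gene (0% of 19938). At an unadjusted p under 0.05, 3 of the 8 members were higher and 0 were lower, against 3.97% of all genes higher and 8.63% lower.

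Glucose is trapped by hexokinase, and the choice of probe set decides what the array says of Hk1. The Hk1 probe set with the highest mean read 11.34, 11.74 and 11.29 with MPN marrow against 11.23 in the control. All 3 MPN arrays lay above the control, by 0.060 to 0.516. That probe set is annotated with 1 sequence record only, and the same record is listed on 16 further probe sets that name Hk1 together with Rpl17, a ribosomal protein gene. Those 16 lay between 9.92 and 12.03 on every array and were all higher in each of the 3 MPN mice than in the control, by a mean of 0.236 to 0.647. The other Hk1 probe set, the one that lists 2 RefSeq transcripts, read 5.77, 6.64 and 6.36 with MPN marrow against 6.50. Its MPN arrays lay on both sides of the control, with a log2 difference of -0.24 (SE 0.42) and a 95% interval from -1.50 to 1.02. The distance between profiles, taken over the 4 centred values, from the 16 shared probe sets had a median of 0.252 for the first Hk1 probe set and 0.764 for the second. The value chosen by the highest mean is therefore uncertain as a level of Hk1, and counts below are also given with the second probe set.

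Hk2, the inducible hexokinase of muscle and of many dividing cells, was at 5.52, 5.27 and 6.30 with MPN marrow against 5.52 in the control. MPN mouse 1 held the same value as the control, mouse 2 lay lower and mouse 3 higher. Its log2 difference of 0.18 (SE 0.50) had a 95% interval from -1.31 to 1.67, and limma's adjusted p was 0.862. Identical values on the control and an MPN array occurred in 6.00% of all genes. The difference was -0.12 without MPN mouse 3.

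Phosphofructokinase, the committing step, is encoded by a gene for each of its liver, platelet and muscle forms. Pfkl, the liver form, was at 5.35, 5.35 and 4.70 with MPN marrow against 4.55 in the control. All MPN arrays lay above the control, but both group means were under the background limit, so the size of the difference of 0.58 (SE 0.36) is uncertain. Pfkp, the platelet form, was at 5.77, 8.23 and 6.00 with MPN marrow against 6.38. Mouse 2 alone was high, and the other pair of MPN mice lay below the control. Its SD of 1.36 was the widest among the 8 members, the 95% interval of its difference ran from -3.34 to 3.91, and without mouse 2 the difference was -0.50. Vpreb1, a gene of the B cell precursor receptor, named after its values were seen, was also highest on mouse 2, at 4.36, 11.26 and 4.80 against 9.64. The other 6 measured B cell precursor markers had a mean level of 5.48, 5.57 and 5.13 against 5.14. Their part in the Pfkp value was not tested. Within each array, Pfkp relative to Pfkl shifted from the control's balance by -1.41, 1.05 and -0.53.

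Aldoa encodes the aldolase that splits the sugar in most tissues. It was at 8.55, 8.52 and 9.10 with MPN marrow against 7.76 in the control. Every MPN array lay above the control, by 0.762 to 1.34, and mouse 3 was the highest. The mean difference was 0.96 (SE 0.32), with a 95% interval from 0.0056 to 1.92, an unadjusted p of 0.0492 and limma's adjusted p of 0.395.

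Pgk1, the first of the enzymes that make ATP in the pathway, had the largest difference of the members. It was at 10.08, 9.65 and 9.82 with MPN marrow against 8.10 in the control. The groups did not overlap, and the lowest MPN array was 1.55 above the control. The SD over the MPN arrays was 0.215, and the mean difference of 1.75 (SE 0.24) had a 95% interval from 1.04 to 2.47. Limma's adjusted p was 0.146 and the unadjusted p 0.00342. The gene has 3 probe sets of its own, 2 of which held identical values, and their differences ran from 1.70 to 1.75. In RefSeq, Pgk1 lies on the X chromosome. Xist, the RNA of the inactive X, chosen after its values were seen, was at 8.37, 9.31 and 9.22 with MPN marrow against 3.30 in the control. Its part in the Pgk1 value was not tested. Xist divides the arrays exactly as the groups do. A difference that goes with it, such as the sex of the cells, cannot be told apart from the group for any gene here.

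Pkm, the pyruvate kinase of most tissues other than liver and red cells, was nearly as far from the control. It was at 9.08, 9.33 and 9.32 with MPN marrow against 7.64 in the control. The MPN arrays lay within 0.256 of each other and at least 1.43 above the control. The mean difference was 1.60 (SE 0.19, SD 0.144, n = 3), with a 95% interval from 1.02 to 2.18, an unadjusted p of 0.00232 and limma's adjusted p of 0.133. The second Pkm probe set, which lists no RefSeq transcript, gave 1.59 (SE 0.34 in a fit over all single-symbol probe sets). The M1 and M2 splice forms are not separated by these values.

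Ldha, which converts the pyruvate made by Pkm into lactate, stood closer to the control. It was at 7.94, 7.52 and 8.35 with MPN marrow against 7.78 in the control. Mice 1 and 3 lay above the control and mouse 2 below it. The difference of 0.16 (SE 0.40) had a 95% interval from -1.02 to 1.34, and limma's adjusted p was 0.847. That interval overlaps those of Pgk1, from 1.04 to 2.47, and Pkm, from 1.02 to 2.18. Within each array, Pkm relative to Ldha shifted from its balance in the control by 1.28, 1.95 and 1.10. For Pgk1 relative to Ldha the shifts were 1.82, 1.81 and 1.16. These pairs set the members with the largest differences against the one with the smallest, and every shift uses the same control array. The shifts are a description only.

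**Figure D2:**
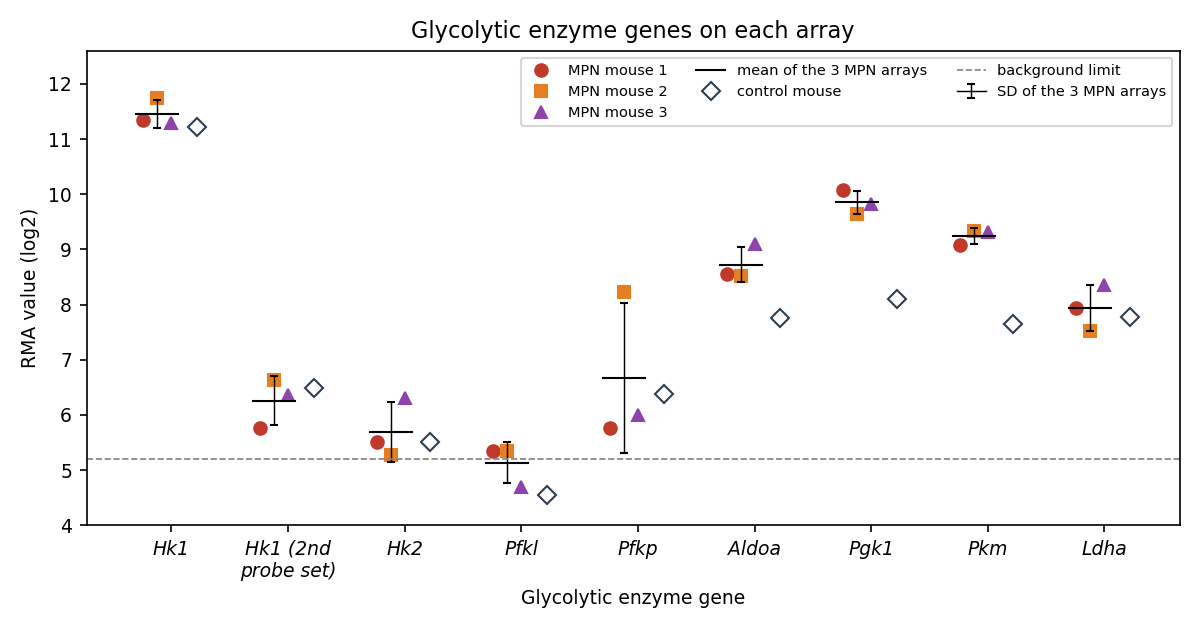
RMA value (log2) of each measured glycolytic enzyme gene on the 3 MPN arrays (filled symbols, with their mean and SD) and the control array (open diamond), and the background limit of 5.21 (dashed). Pgk1, Pkm and Aldoa show all MPN arrays clear of the control, Pfkp shows mouse 2 alone at 8.23, and the second Hk1 probe set sits far below the first.

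Over the list, the mean difference was above 0 for all 8 measured members, from 0.16 for Ldha to 1.75 for Pgk1. It was above 0 for 7 of 8 with the second Hk1 probe set, and for 5 of 8 with the arrays aligned on the receptor genes, where Hk1, Hk2 and Ldha were below 0. Ldha lay under the median difference of all genes, and Hk2, at 0.180, was level with it. Both lay above the median of 0.0785 for genes above the background limit. The median member lay 0.433 higher and the median of all genes 0.179 higher. By mouse the median member was 0.474, 0.779 and 0.679 above the control, where the median gene was 0.202, 0.209 and 0.0752 above it. All 3 MPN arrays lay above the control for 5 of 8 members and below it for 0, against 46.8% and 21.1% of all genes. With the second Hk1 probe set the count was 4, against 46.8% of all genes. With the arrays aligned on the receptor genes it was 3, against 22.6% of all genes. The member median was then 0.176 and the median of all genes -0.0778. The count of 5 of 8 is near the share of all genes. Among genes above the background limit, with the first Hk1 probe set, the count was 4 of 7 members, against 36.9% of such genes. The median differences there were 0.287 for the members and 0.0785 for all such genes. The second Hk1 probe set lay on both sides of the control, so with it Hk1 leaves that count. At least 2-fold higher on each MPN array were 2 of the 8, Pgk1 and Pkm, against 1.13% of all genes, and 0 were 2-fold lower on each, against 5.78%. Pgk1, Pkm and Aldoa lay at percentiles 98.8, 98.6 and 96.2 of all differences. The median member was 0.698 higher without MPN mouse 3. In the mean of the MPN arrays, Ptprc was higher by 2.94 and Ly6g, a neutrophil surface marker, by 4.31. The control value of Ly6g was under the background limit. Lepr, a mesenchymal stromal marker, was lower, with a difference of -4.19.

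**Figure D3:**
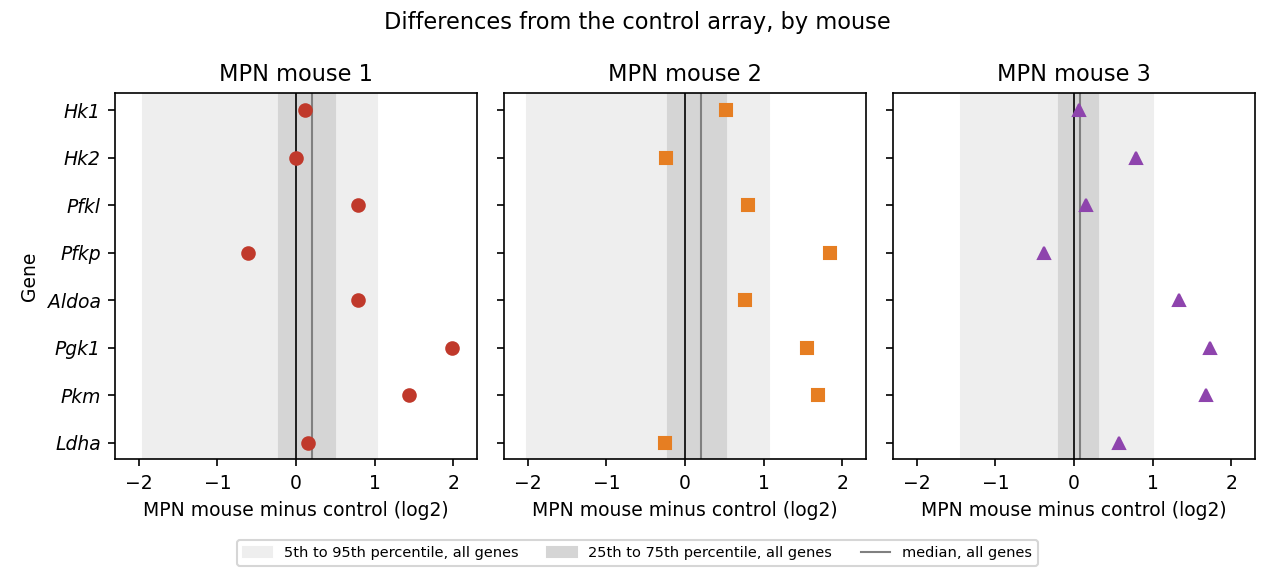
Log2 difference of each glycolytic enzyme gene from the control, 1 panel per MPN mouse, over the spread of all 19938 genes (bands at the 5th to 95th and 25th to 75th percentiles, grey line at the median). Pgk1 and Pkm lie right of the 95th percentile in each panel, at 1.43 to 1.98. Ldha and Pfkp change side between mice, as does Hk2, which equals the control for mouse 1.

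The genes around these enzymes came from lists of the other isozymes and steps, transporters and side pathways. None of their genes passed limma's adjusted test, and of 98 measured, 40 lay above the control and 16 below it on each MPN array. Neither count exceeds the share of all genes, 46.8% above and 21.1% below, and the counts of the single lists are to be read beside those shares. The other glycolytic isozymes and steps had 18 measured genes of 21, of which 12 lay above the control and 1 below it on each MPN array, with a median difference of 0.492. Only 11 of the 18 exceeded the background limit in either group. Hkdc1, Pgk2, Eno2, Eno4 and Pklr were counted above the control but stayed under the limit in both groups. At limma's unadjusted p under 0.05, 3 genes were higher: Hk3, and Hkdc1 and Pklr from under the limit. Hk3, the hexokinase form found in blood cells, was at 6.28, 6.20 and 6.06 with MPN marrow against 5.03 in the control, a difference of 1.15 (SE 0.17) with adjusted p 0.166. Pgam1, the mutase between Pgk1 and enolase, was at 8.59, 6.68 and 7.92 against 5.80. Its difference of 1.93 (SE 0.87) was uneven between mice, and its other probe sets gave 1.26. Tpi1, which interconverts the products of aldolase, was at 8.20, 7.44 and 8.74 against 7.24. Aldoc, the aldolase of brain, was at 8.13, 6.20 and 5.32 against 4.72, and mouse 1 stood apart. The control values of Hk3 and Aldoc were under the background limit, so the sizes of their differences are uncertain. Pfkm, the muscle phosphofructokinase, was at 5.66, 5.78 and 5.36 against 5.73, and its groups overlapped. Gapdh was represented only by probe sets that name several genes, and has no value here.

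Of 14 glucose and lactate transporter genes, 8 lay above the control on each MPN array and 2 below it, with a median of 0.435. Only 10 of the 14 exceeded the background limit in either group. Slc2a5, Slc2a9, Slc2a12 and Slc16a1 were counted above the control but stayed under the limit. Slc2a1, the basal glucose transporter, was at 6.27, 7.02 and 6.48 with MPN marrow against 5.97, a difference of 0.62 (SE 0.37). Slc2a3, a high-affinity glucose transporter, was at 7.13, 5.54 and 7.63 against 5.71, so that mouse 2 lay below the control. Slc2a5, the fructose transporter, differed by 0.97 (SE 0.40) but stayed under the background limit. Slc16a7, a monocarboxylate transporter, was lower by a difference of -1.17 (SE 0.26), and the unadjusted p was 0.0152. On the MPN arrays Slc16a7 was under the background limit, so the size of its difference is uncertain. The enzymes that make and remove the sugar bisphosphate activating phosphofructokinase had a median difference of 0.134 over 4 genes, 1 of which lay above the control on each MPN array. Among them Pfkfb3 differed by 0.07 (SE 0.53), Pfkfb2 by 0.58 (SE 0.79) and Pfkfb4, under the limit, by 0.20 (SE 0.15).

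The genes that carry pyruvate into the mitochondrion and control its entry had a median difference of -0.122 over 13 genes, with 2 above and 2 below the control on each MPN array. Pdk4, a kinase that shuts pyruvate dehydrogenase, was at 5.08, 4.78 and 7.44 with MPN marrow against 8.0, with mouse 3 close to the control. Dld, a subunit of that complex, was at 4.74, 9.65 and 7.86 against 8.54. Mpc1, a pyruvate carrier subunit, was at 5.05, 4.36 and 6.39 against 5.99, and Pdk1 at 4.51, 4.65 and 4.43 against 4.65, under the limit. The spread between MPN mice exceeded the difference from the control for Dld and Mpc1.

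In the pentose phosphate pathway, which branches from the first glycolytic intermediate, 2 of 8 genes lay above and 2 below the control on each MPN array, and the median was 0.0777. Tkt, the transketolase, was at 7.64, 7.67 and 7.25 with MPN marrow against 5.09, a difference of 2.43 (SE 0.25) with limma's adjusted p of 0.111 and an unadjusted p of 0.00137. Taldo1, the transaldolase that works beside it, was at 6.41, 6.64 and 6.88 against 5.48. Both genes showed every MPN array above the control, while Pgd, a dehydrogenase of the same pathway, was at 7.40, 10.16 and 10.02 against 8.60 and straddled it. Among 10 glycogen enzymes with a median of -0.0108, Pygl, the liver form of glycogen phosphorylase, was at 8.16, 7.30 and 9.13 against 5.85. Gyg, the primer of glycogen synthesis, differed by 1.09 (SE 1.02) and Gbe1, the branching enzyme, by -0.70 (SE 0.97). The 7 gluconeogenesis genes had a median of 0.322 and 4 were under the limit in both groups. Pck1, which makes phosphoenolpyruvate, differed by 0.73 (SE 0.21) from a control value under the limit. Fbp2, a fructose bisphosphatase that runs the phosphofructokinase step backwards, differed by 0.37 (SE 0.19), and G6pc, which frees glucose from its phosphate, by 0.34 (SE 0.22), both under the limit.

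The hypoxia factor list was included because several glycolytic genes are among the factors' known targets. Hif1a, the oxygen-regulated subunit, was at 5.83, 6.05 and 7.05 with MPN marrow against 8.36 in the control, and Epas1, its relative, at 7.0, 6.08 and 6.02 against 9.42. Both were lower than the control on each MPN array, with differences of -2.05 (SE 0.60) and -3.05 (SE 0.51) and adjusted p of 0.351 and 0.181. Of the 26 genes of the list, 8 lay above and 7 below the control on each MPN array, and the median was -0.0280. Ero1a, an oxidase of the secretory pathway, was at 9.22, 9.76 and 11.04 against 7.76, a difference of 2.24 (SE 0.84). The factors are regulated largely as proteins, which arrays do not measure. Mesenchymal stromal markers were lower on the same arrays, and their part in the Hif1a and Epas1 values was not tested.

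**Figure D4:**
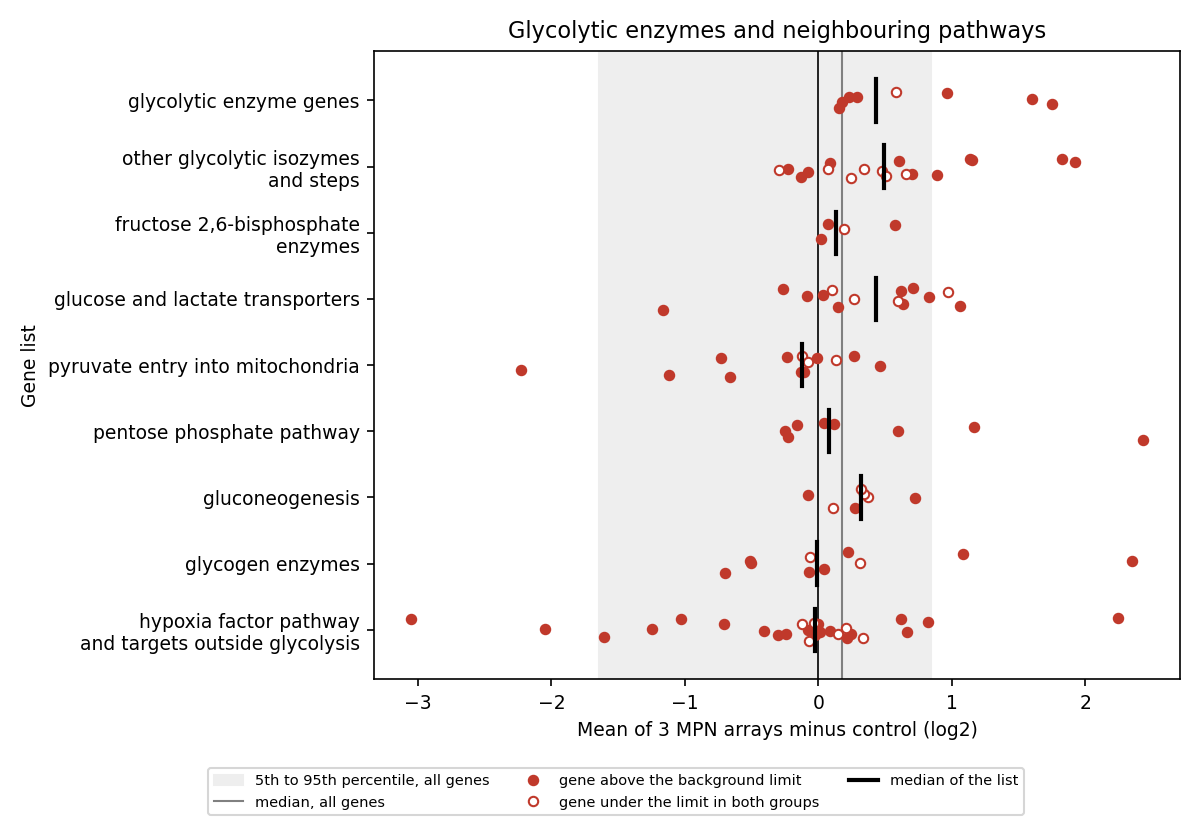
Mean log2 difference between the 3 MPN arrays and the control for each gene (points, open where a gene was under the background limit in both groups), by list, with the list's median (black bar) and the spread of all genes (grey). The medians of the glycolytic lists lie at 0.433 and 0.492 and that of the hypoxia factor list at -0.0280, with Epas1 at -3.05 and Tkt at 2.43 as the farthest genes on either side. The control value of Tkt was under the limit.

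The genes closest to the mean profile of the members were sought among 11959 other genes above background. The mean of the 8 centred profiles was 0.04, 0.29 and 0.20 in the MPN mice and -0.54 in the control. Of the MPN arrays, mouse 2 was highest for Hk1, Pfkl, Pfkp and Pkm and lowest for Hk2, Aldoa, Pgk1 and Ldha. Pfkp varied most, at 5.77, 8.23 and 6.00 with MPN marrow, and the mean profile was not computed without it. It is therefore not a profile that each member shares. By Euclidean distance over the 4 arrays, the 5 nearest genes were Rcc1 (0.0494), Fbxo6 (0.0749), Phldb3 (0.0772), Hamp2 (0.0831) and Tbkbp1 (0.0889). Rcc1 was at 6.14, 6.45 and 6.37 with MPN marrow against 5.61 in the control. Without Hk1, Rcc1 and Fbxo6 remained among the 5 nearest. With 4 arrays such closeness is a description only.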

How the data were processed

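The authors deposited log2 values made with RMA, per the submitters' processing notes. RMA removes background, equalises the distributions of the arrays and summarises each probe set, which compresses differences near background. RNA was amplified with the NuGEN Ovation system and labelled with biotin, per the design text and the labels' protocols. RMA version, probe set definitions and build were each not given in the sources used here. The deposited log2 values ran from 1.55 to 13.63. Precision is limited by the number of arrays.

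Of 35556 probe sets, 21789 had 1 gene symbol, 1621 several and 12146 none here. Of those with 1 symbol, 21698 matched RefSeq by identifier and 0 symbols changed. The probe set with the highest mean represented a gene. Limma 3.58.1 in R 4.3.3 (lmFit, eBayes, two-sided) compared MPN (n = 3) with control (n = 1) over 19938 genes, with Benjamini-Hochberg adjustment at 0.05. Its 2 residual degrees of freedom came from the MPN mice, beside a prior of 1.39. SE and intervals come from this fit. Each title names its sample a mouse.

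Named genes were all members, up to 3 genes per list with the largest difference, and 10 key genes. Members and lists were chosen with earlier results of these data known. The steps were tested on simulated data. The alternatives changed the arrays used, the probe set, the filter, the scaling and the variance prior; using the second Hk1 probe set and leaving Hk1 out were added after seeing the data.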

Additional observations from a re-analysis of the deposited data

How the results depend on the processing

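Across 11 alternative settings and 2 more chosen after seeing the data, 0 of the 8 members passed limma's adjusted test. Pgk1 kept a difference of 1.5 to 1.87 (adjusted p from 0.111 to 0.454), Pkm 1.34 to 1.80 (0.0834 to 0.462) and Aldoa 0.706 to 1.19 (0.232 to 0.616). The count of all genes called was 97 with cyclic loess and 153 with the arrays aligned on the median of the receptor genes, against 0 as deposited. This alignment also moved the members' median to 0.176 and the members on one side of the control to 3. All of these lay above the control, as did 22.6% of all genes under the same alignment. The median gene moved from 0.179 to 0.0121 after cyclic loess and to -0.0778 after the receptor alignment. Leaving out MPN mice in turn gave a median of 0.432 to 0.698, with 5 to 7 members on one side and 0 members and 0 genes called. The count of 7, without mouse 2, held 6 members above the control and 1, Pfkp, below it. The share of all genes above the control was then 50.1%. Without mouse 3 the count was 5, all above, against 56.9% of all genes. Each mouse left out raised that share from the 46.8% of the full set, so these counts are not comparable with the count for all arrays.

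Of 102 values of single members under the alternatives, 92 kept their direction and their side of the threshold and 10 changed sign, none of them called; the cause was not tested. Hk1 was -0.0055 with its probe sets averaged, -0.11 after repeated quantile normalisation, -0.0928 with cyclic loess, -0.0276 after the receptor alignment and -0.24 with the second probe set. Hk2 was -0.0769 and Ldha -0.10 after the receptor alignment. Leaving out mice in turn gave -0.12 (without mouse 3) to 0.393 for Hk2, -0.0508 (without mouse 3) to 0.364 for Ldha and -0.50 (without mouse 2) to 0.736 for Pfkp. Pfkl dropped out where genes under the background limit were removed. No paired analysis was possible because there is only 1 control array.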
